A study of Homo sapiens with 42 samples.

Results

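Selumetinib, an inhibitor of the kinases MEK1 and MEK2, changed gene expression in 2 human acute myeloid leukaemia lines, and the comparison described here asks which genes responded differently in NOMO1 and in OCI-AML3. Its measure is the line difference: the log2 effect of selumetinib in NOMO1 minus that in OCI-AML3, so that a negative value means a deeper fall or a smaller rise in NOMO1. It rests on 12 of the series' 42 libraries, 3 in each of 4 groups, and on 18707 genes tested of 58868 in the table. NOMO1 carries a KMT2A rearrangement (KMT2A-r) and OCI-AML3 a mutant NPM1 (NPM1c+), both as labelled. The treated groups received selumetinib at 100 nM, and the control in each line was DMSO at day 6. The treatment protocol and the library descriptions give 1 day of selumetinib, but the titles of replicates 2 and 3 in both lines say day 3, so its time is uncertain and no DMSO group of 1 day is labelled. Each genotype is 1 cell line, so genotype and line cannot be told apart. No label says that the 3 replicates are independent cultures, and p-values then measure only the spread between replicate libraries, which may be technical. That spread was estimated over all 42 libraries of the series, not over the 12 alone.

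MEK1 and MEK2 phosphorylate and activate the ERK kinases, the last step of the pathway that runs from growth factor receptors through RAS and RAF. Active ERK switches on transcription of immediate early genes such as EGR1 and FOS, of the ETS-family factors ETV4 and ETV5, of CCND1, which drives entry into the cell cycle, and of its own inhibitors, the DUSP phosphatases and the Sprouty proteins. These inhibitors are widely used to read how much ERK activity a cell has. OCI-AML3 is known to carry an activating NRAS mutation.

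Total counts per library ran from 15264862 to 29168628. Of 12 markers of myeloid leukaemia cells, 10 in NOMO1 and 8 in OCI-AML3 exceeded 5 CPM (counts scaled to library size, here without further factors) in every group; MPO was highest in NOMO1, CD34 was at 0 there and KIT was at 0 in OCI-AML3. Of 12 erythroid markers, 8 were at 0 in each NOMO1 group, and 11 (DMSO) and 10 (selumetinib) in OCI-AML3. HBA1, HBA2 and HBB were at 0 in all 4 groups, while EPOR lay at 18.2 to 20.2 CPM. Some markers of other lineages were expressed. In NOMO1, NKG7 lay at 122 CPM with DMSO and 108 with selumetinib, KRT8 at 135 and 285, and CD79B at 24.8 and 27.7. NCAM1 lay at 212 and 265 CPM in OCI-AML3. The share of mitochondrially encoded transcripts in NOMO1 was 3.17 ± 0.48% of counts with DMSO day 6 and 5.81 ± 0.76% with selumetinib, and in OCI-AML3 3.24 ± 0.66% and 4.02 ± 0.42% (SD, n = 3 each). NOMO1 DMSO day 3, which was not used as the control, stood apart with 17.6% to 18%.

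Among the OCI-AML3 selumetinib libraries, replicate 1, the one titled day 1, lay nearest to the DMSO mean in 706 of the 992 genes called with an over 2-fold effect there (71.2%), with a median effect of 0.847 on the log2(CPM + 1) scale against 1.15 and 1.16 in replicates 2 and 3. In NOMO1 the library titled day 1 lay nearest in 32% of 1007 genes (5.38% of those tested, and 5.30% for the 992). Low counts of genes of other tissues also appeared in OCI-AML3 selumetinib libraries. Of 16 intestinal epithelial genes (APOA4, APOB and SI among them), 15 had counts in replicate 1, 16 in replicate 2 and 3 in replicate 3, summing to 22.1, 11.8 and 0.742 CPM, against 0.503 to 0.531 in OCI-AML3 DMSO libraries. Of 12 fibroblast genes, 11, 4 and 11 had counts, summing to 21.1, 2.12 and 9.44 CPM, against 0.106 to 0.637. COL3A1, SFRP1 and CAV1, which define that list, were at 0 in every OCI-AML3 DMSO library. In NOMO1, 4 to 6 of the 12 had counts, mostly of COL1A1, summing to 26.5 to 29.5 CPM with DMSO and 113 to 129 with selumetinib. These 2 marker lists were written after the values were seen. They bear on genes near 0 in untreated OCI-AML3, and their part in the results was not tested. Restricting the calls to genes with over 3 counts in each of the 4 groups left 849 higher and 877 lower line differences of the 870 and 927 described next, and restricting them to genes with at least 5 CPM in each group left 736 and 669 (both chosen after seeing the data). A fit without OCI-AML3 selumetinib replicate 1 gave 855 and 879, 1 without replicate 2 gave 665 and 720, and 1 without replicate 3 gave 691 and 695.

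Against DMSO day 6, a like number of genes changed with selumetinib in each line. They were 2119 up and 2643 down in NOMO1 (25.5% of the genes tested, edgeR adjusted p under 0.05) and 1993 up and 2451 down in OCI-AML3 (23.8%). As shares of the genes tested, these were 11.3% up and 14.1% down in NOMO1 and 10.7% up and 13.1% down in OCI-AML3. With DMSO day 3 as control the numbers were unlike, 4995 up and 3677 down in NOMO1 and 1945 and 2466 in OCI-AML3. The labelled days of treated and control libraries differ, so drug and day cannot be told apart. The line difference was called for 1797 genes (9.61%), of which 870 were higher in NOMO1 (4.65%) and 927 lower (4.96%), while 3863 had an unadjusted p under 0.05. Past a 2-fold difference there were 231 higher and 333 lower genes (3.01%). The median line difference over all genes was -0.0026. Of the 1797 genes, 205 moved in opposite directions in the lines with a call in each, 97 moved the same way but further in NOMO1 and 130 further in OCI-AML3. A further 652 were called in NOMO1 only and 670 in OCI-AML3 only, and 43 in neither line. The lines shared much of the response: 2309 genes were called in both, 760 up and 1344 down together, and 432 of the 2309 had a called line difference. Across genes, which are not independent replicates, the effects in the lines had a Pearson r of 0.189 and a Spearman rho of 0.34.

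**Figure D1:**
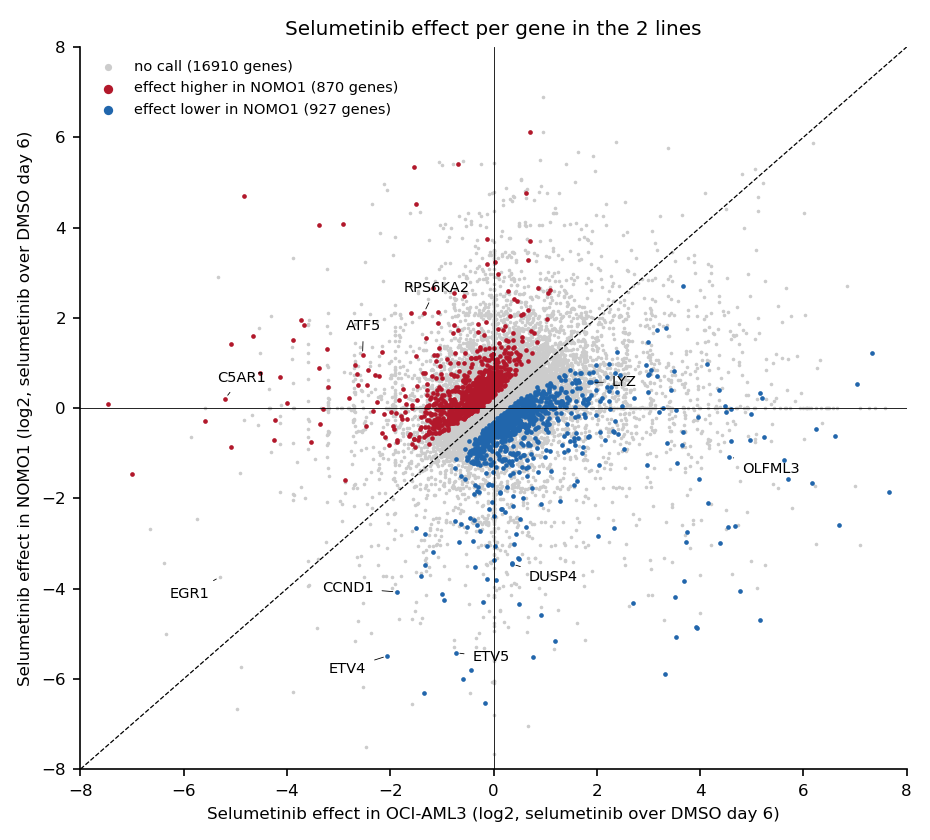
Selumetinib effect of each of 18707 genes in OCI-AML3 (x axis) and NOMO1 (y axis), as log2 of selumetinib over DMSO day 6, with called line differences in red (870 higher in NOMO1) and blue (927 lower) and the line of equal effect dashed. Points off the dashed line responded differently, ETV5 and OLFML3 far below it and C5AR1 and ATF5 above it; 3 genes lie outside the axes.

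ETV5, ETV4, CCND1, SPRY4 and DUSP6, which ERK signalling induces, fell in both lines and further in NOMO1. Line differences are given as log2 ± SE. ETV5 (chromosome 3, 186046308 to 186110318, GRCh38), an ETS-family transcription factor, lay at 85.7, 80.7 and 81.4 CPM in the NOMO1 DMSO libraries and at 2.52, 1.77 and 1.39 with selumetinib; in OCI-AML3 it lay at 23.1, 22.9 and 24.7 and at 17.5, 13.3 and 11.8 (CPM here and below are scaled by TMM factors). Both lines separated treated from control libraries, but the treated NOMO1 libraries fell below every OCI-AML3 library from a start above them. The effects were -5.42 in NOMO1 and -0.73 in OCI-AML3, which gave a line difference of -4.69 ± 0.34, edgeR adjusted p = 1.95e-11. ETV4, its close relative, lay at 88.4, 86.3 and 83.1 CPM in NOMO1 and fell to 2.17, 0.706 and 2.62; in OCI-AML3 it lay at 19.7, 17.2 and 19.4 and fell to 8.69, 3.02 and 2.04. It too fell in both lines without overlap, and its line difference was -3.44 ± 0.48, edgeR adjusted p = 7.50e-06. CCND1, cyclin D1, lay at 53.2, 62.5 and 60.5 CPM against 3.31, 3.53 and 3.62 with selumetinib in NOMO1, and at 85.4, 87.9 and 72.6 against 34.9, 17.6 and 15 in OCI-AML3. Untreated NOMO1 lay below untreated OCI-AML3, and every treated NOMO1 library lay below every OCI-AML3 library, with a line difference of -2.20 ± 0.26, edgeR adjusted p = 1.04e-07.

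The feedback inhibitors of ERK divided. DUSP6, the phosphatase that removes ERK's activating phosphates in the cytoplasm, lay at 41.7, 43.8 and 44 CPM in untreated NOMO1 and at 5.93, 4.66 and 3.45 with selumetinib, and in OCI-AML3 at 10.1, 5.99 and 9.05 and at 5.98, 2.97 and 2.37. The OCI-AML3 groups nearly met, with 1 treated library just under 1 DMSO library, and the line difference was -2.02 ± 0.39, edgeR adjusted p = 5.24e-04. SPRY4, a Sprouty protein that blocks the pathway upstream of ERK, went from 36, 31.3 and 24.8 CPM to 2.42, 2.40 and 2.17 in NOMO1 and from 52.8, 55.5 and 48.9 to 25.6, 17.4 and 16.4 in OCI-AML3, a line difference of -2.31 ± 0.41, edgeR adjusted p = 1.79e-04. DUSP4, a nuclear phosphatase of ERK, fell in NOMO1 from 4.41, 3.28 and 3.88 CPM to 0.395, 0.424 and 0.223. In OCI-AML3 it lay at 27.7, 27.7 and 25.5 CPM with DMSO and at 35.8, 32.8 and 34.8 with selumetinib, an effect of 0.35 that was not called (edgeR adjusted p = 0.183), and the line difference was -3.81 ± 0.42, edgeR adjusted p = 2.24e-08. SPRY2 went the other way: it lay at 26.8, 25.3 and 25.3 CPM and 23.8, 19.4 and 26.2 in NOMO1, which overlapped, and fell from 69.3, 69.1 and 67.6 to 48.3, 38.4 and 38.5 in OCI-AML3. Its line difference of 0.57 ± 0.17, edgeR adjusted p = 0.0247 lost its call in 6 of 12 fits that left out 1 library (log2 0.47 to 0.69, edgeR adjusted p up to 0.112) and with library totals in place of TMM factors. PHLDA1, a further ERK output gene, fell in both lines (-1.81 and -1.28), with no called difference (-0.53 ± 0.53, edgeR adjusted p = 0.680).

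**Figure D2:**
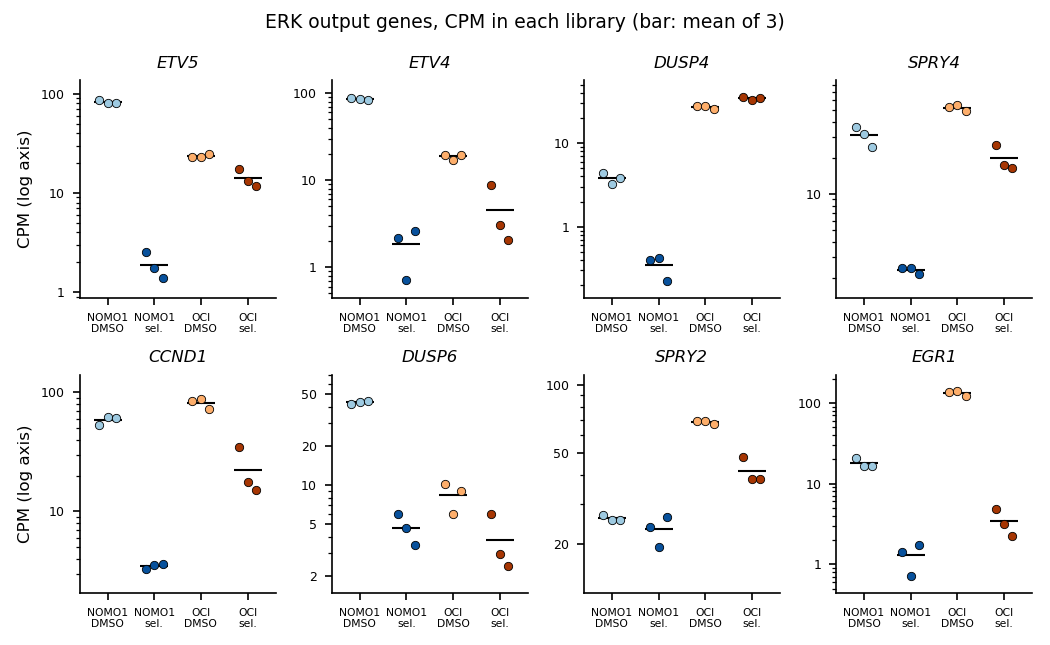
CPM (log axis) of 8 ERK output genes in each of the 12 libraries, with points for libraries, bars for the mean of 3 and OCI for OCI-AML3. In ETV5, ETV4, SPRY4 and CCND1 the treated NOMO1 libraries lie below all OCI-AML3 libraries or, for ETV4, overlap only the treated ones; EGR1 falls in both lines.

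Of 20 MEK output genes, an expression signature of MEK activity, 19 were tested: 9 were lower and 3 higher in the line difference, beside 4.96% and 4.65% of all genes, and the median was -0.57 beside -0.0026. S100A6 and KANK1 were among the lower ones although neither fell in NOMO1 beyond the test: S100A6, a calcium-binding protein, rose in OCI-AML3 by 1.06. Of 21 feedback inhibitors tested, 3 were lower, DUSP4, SPRY4 and DUSP6, and 1 was higher, SPRY2, and 10 fell in each line. With DMSO day 3 as the control in both lines SPRY4 moved to -1.26, still called. Leaving out 1 library in turn gave 8 or 9 lower MEK output genes.

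Of 32 immediate early genes tested, 14 fell and 1 rose in NOMO1 and 17 fell and 2 rose in OCI-AML3, and their line differences went both ways, 4 higher and 2 lower (18.8% called, beside 9.61% of all genes). EGR1, a zinc finger factor that ERK induces within minutes, lay at 20.6, 16.6 and 16.5 CPM in untreated NOMO1 and at 137, 139 and 122 in untreated OCI-AML3, and with selumetinib at 1.43, 0.706 and 1.73 and 4.87, 3.17 and 2.22. Every treated library was below every control library of its line; the effects were -3.74 and -5.30, and the difference between them was not called (1.56 ± 0.95, edgeR adjusted p = 0.396). It was called without a filter on low counts and in a fit of only the 12 compared libraries, and was 0.09 with DMSO day 3 as control in both lines. FOS, a subunit of the AP-1 factor, fell by 1.58 in NOMO1 and gave -0.86 in OCI-AML3 (edgeR adjusted p = 0.0596), with no called difference (-0.72 ± 0.47, edgeR adjusted p = 0.437); 3 alternatives called it, with -1.79 for DMSO day 3 in both lines. JUN, its partner, lay at 9.30, 10.3 and 6.84 CPM and fell to 1.73, 2.05 and 3.95 in NOMO1, and lay at 8.80, 9.11 and 8.43 and 14.8, 13.7 and 15.5 in OCI-AML3. The OCI-AML3 libraries did not overlap and were higher with selumetinib, though that effect of 0.74 was not called (edgeR adjusted p = 0.0534); the line difference was -2.52 ± 0.44, edgeR adjusted p = 1.44e-04. KLF10, a zinc finger factor, lay at 27.9, 34.8 and 25 and 37.1, 35.5 and 30.3 CPM in NOMO1, and fell from 72.7, 66.9 and 63.3 to 33.3, 29.3 and 29.6 in OCI-AML3, a line difference of 1.37 ± 0.19, edgeR adjusted p = 1.14e-06. ATF3, a stress-induced transcription factor, gave -0.41 in NOMO1 and fell by 2.47 in OCI-AML3 (2.06 ± 0.51, edgeR adjusted p = 5.34e-03), and IER2 fell in both, further in OCI-AML3 (0.86 ± 0.20, edgeR adjusted p = 2.30e-03). IER2 turned to -0.20 (not called) with DMSO day 3 as control in both lines.

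The EGR1 promoter is shown because SRF with its ERK-activated partners acts through CArG boxes (CC, 6 A or T bases, GG). In RefSeq's GRCh38.p14 table, the 250 bases before its start (chr5:138465229-138465478, plus strand) hold 2 of them, in capitals:

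EGR1: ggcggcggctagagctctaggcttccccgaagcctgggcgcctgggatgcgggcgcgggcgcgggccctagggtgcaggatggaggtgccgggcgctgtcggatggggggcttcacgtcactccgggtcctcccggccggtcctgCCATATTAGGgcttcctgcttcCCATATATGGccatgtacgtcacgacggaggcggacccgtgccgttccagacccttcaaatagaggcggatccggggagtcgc

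A CArG box lay in 2 of 25 promoters of immediate early genes (EGR1 and SRF, 8.0%), against 123 of 11666 promoters of all genes tested (1.1%), in windows of 250 bases before to 50 after the start, both strands. The ETS core CCGGAA was in 179 of 661 promoters of genes higher in NOMO1, in 144 of 719 of those lower and in 3239 of 11666 of all genes tested. A match is a description of letters, not of binding.

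Among components of the pathway itself, 31 were tested, 5 were higher in the line difference and 1 was lower (19.4% called, beside 9.61% of all genes). Leaving out 1 library in turn gave 3 or 4 higher (3 without replicate 2 of NOMO1 DMSO, NOMO1 selumetinib or OCI-AML3 DMSO) and 0 to 2 lower, and with DMSO day 3 in both lines 19 were higher and 5 lower. RPS6KA2, which encodes RSK3, a kinase that ERK activates, rose in NOMO1 from 3.13, 1.85 and 4.05 CPM to 13.6, 13.8 and 11.4 and fell in OCI-AML3 from 43.1, 46.6 and 47.6 to 24.1, 16 and 13.9. The directions were opposite and no groups overlapped, with a line difference of 3.46 ± 0.37, edgeR adjusted p = 2.94e-08. MRAS, a GTPase related to the RAS proteins, rose in NOMO1 and gave -0.09 in OCI-AML3 (0.41 in NOMO1, 0.50 ± 0.15, edgeR adjusted p = 0.0249). That call was lost without replicate 2 of NOMO1 DMSO, of NOMO1 selumetinib or of OCI-AML3 DMSO, or without OCI-AML3 selumetinib replicate 3 (edgeR adjusted p up to 0.0700). NRAS and MAP2K1, which encodes MEK1, had no called difference (0.01 ± 0.11, edgeR adjusted p = 1 and -0.07 ± 0.15, edgeR adjusted p = 0.889). With DMSO day 3 in both lines both were called, NRAS at 0.28 and MAP2K1, which turned, at 0.46. Among 29 growth factor and cytokine receptors 2 were higher and 1 lower, a share near the 9.61% of all genes; leaving out 1 library in turn gave 1 or 2 higher and 0 to 4 lower, with the 4 without OCI-AML3 selumetinib replicate 1. CSF2RA, the GM-CSF receptor's alpha chain, lay at 29.1, 38.1 and 29.1 CPM and rose to 53.4, 49.9 and 57.1 in NOMO1, beside 14.6, 13.3 and 10.8 and 11.3, 9.91 and 11.9 in OCI-AML3 (0.96 ± 0.26, edgeR adjusted p = 0.0140), a call lost without OCI-AML3 DMSO replicate 1 (edgeR adjusted p = 0.0560). FLT3 rose in both lines (0.40 and 0.83), and so did CSF1R, the M-CSF receptor of monocytes (2.74 and 3.28); neither line difference was called (-0.43 ± 0.18, edgeR adjusted p = 0.133, and -0.55 ± 0.31, edgeR adjusted p = 0.342). That of CSF1R was called without OCI-AML3 selumetinib replicate 1 (-0.84) and turned to 0.32, not called, with DMSO day 3 as control in both lines, and that of FLT3 turned to 0.74, called, with DMSO day 3 as control in both lines.

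The genes of cholesterol synthesis fell in NOMO1 and did not fall together in OCI-AML3. Of 23 tested, 20 fell and 1 rose in NOMO1, 1 fell and 5 rose in OCI-AML3, and 18 were lower in the line difference with none higher, a median of -0.91 beside -0.0026 over all genes. INSIG1, which holds the sterol sensor SCAP in the endoplasmic reticulum, lay at 216, 248 and 206 CPM in untreated NOMO1 and at 77.5, 77.2 and 85.3 with selumetinib, and in OCI-AML3 at 73.4, 77 and 76.3 and 87.4, 93.2 and 100.5. It fell without overlap in NOMO1, and the treated OCI-AML3 libraries all lay above their controls (effect 0.31, edgeR adjusted p = 0.0530). The line difference was -1.79 ± 0.17, edgeR adjusted p = 7.36e-10. DHCR7, the enzyme of the last step to cholesterol, went from 316, 322 and 280.1 CPM to 121, 125 and 135 in NOMO1, while OCI-AML3 gave 35.8, 34.6 and 37.6 and 36.5, 34.6 and 33.4, ranges that overlapped (-1.22 ± 0.12, edgeR adjusted p = 4.21e-10). MSMO1, a sterol demethylating enzyme, went from 133, 172 and 129 CPM to 64.9, 67.5 and 66.9 in NOMO1 and from 15.9, 17.6 and 13.5 to 21.9, 20.8 and 21.2 in OCI-AML3, where it rose (-1.56 ± 0.18, edgeR adjusted p = 3.40e-08). MVD, of the mevalonate pathway, had effects of -1.19 and 0.34, both called (-1.52 ± 0.15, edgeR adjusted p = 4.29e-10). All 4 had more transcripts in untreated NOMO1 than in untreated OCI-AML3.

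The list includes the synthase HMGCS1, lower in the line difference (-1.39), whereas SREBF2, which encodes the master regulator of the pathway, was not called (0.12). HMGCS1 went from 979, 1137 and 899.5 CPM to 354, 398 and 384 in NOMO1, which still lay above every OCI-AML3 library (46.3, 46.8 and 48.3 and 43.6, 48.5 and 47.4). With DMSO day 3 in both lines 9 members were lower and 5 higher. Leaving out 1 library in turn gave 16 or 17 lower. A sterol regulatory element (TCACNCCAC) was found in 1 of 18 promoters of the list, that of SREBF2, beside 134 of 11666 of all genes tested (1.1%).

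**Figure D3:**
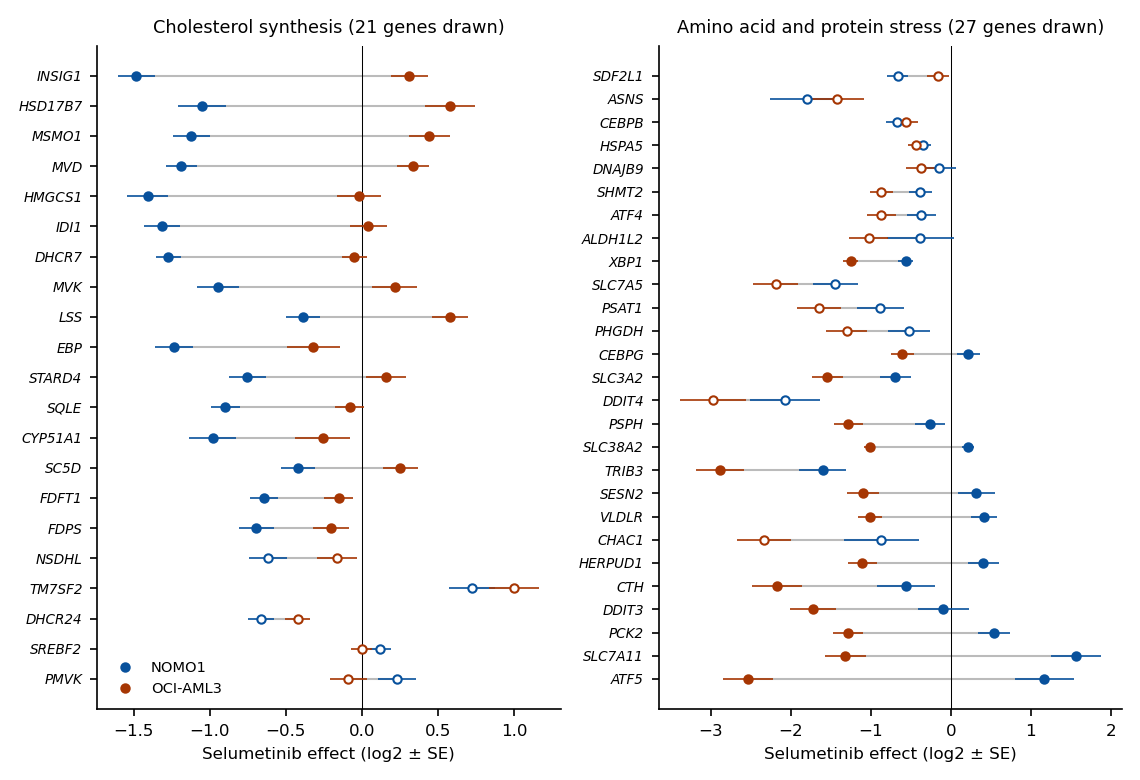
Selumetinib effect (log2 ± SE) of 21 of the 23 tested members of the cholesterol synthesis list and all 27 of the amino acid and protein stress list in NOMO1 (blue) and OCI-AML3 (brown); filled points have a called line difference. Of the cholesterol genes drawn 18 lie left of 0 in NOMO1, and all 27 amino acid genes lie left of 0 in OCI-AML3.

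The called amino acid and protein stress genes were higher in the line difference. This list holds targets of ATF4, the factor that cells make when amino acids run short or unfolded proteins build up. Of 27 tested, 25 fell and none rose in OCI-AML3, and 11 fell and 4 rose in NOMO1. In the line difference 14 were higher and none lower (51.9% called, beside 9.61% of all genes), with a median of 0.85. ATF5, a factor of the same family (chromosome 19, 49928702 to 49933935), lay at 5.14, 4.82 and 4.84 CPM and rose to 11.1, 12.3 and 9.97 in NOMO1, and lay at 145, 155 and 156 and fell to 37.2, 19.9 and 21.5 in OCI-AML3. Its groups moved apart in opposite directions with no overlap (3.71 ± 0.48, edgeR adjusted p = 3.07e-06); its exons overlap IL4I1 and NUP62 on the other strand, and unstranded reads cannot tell these apart. SLC7A11, the cystine importer, rose from 4.16, 4.71 and 3.22 CPM to 9.24, 11.4 and 15.3 in NOMO1 and fell from 84.8, 86.2 and 76.4 to 41, 29.5 and 28.9 in OCI-AML3 (2.88 ± 0.40, edgeR adjusted p = 7.50e-06). SLC38A2, a carrier of neutral amino acids, lay at 246, 264 and 233 CPM and 292, 289.8 and 281 in NOMO1 and fell from 389, 384 and 368 to 219.8, 172 and 174 in OCI-AML3 (1.23 ± 0.10, edgeR adjusted p = 9.08e-12). The effects were 0.22 and -1.01, and no groups overlapped.

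VLDLR, a lipoprotein receptor induced by ATF4, gave 0.42 in NOMO1 and -1.01 in OCI-AML3 (1.43 ± 0.22, edgeR adjusted p = 9.63e-06). Also higher in the line difference were PCK2 (1.82), DDIT3, which encodes the stress factor CHOP (1.62), CTH (1.61), HERPUD1 (1.51) and TRIB3 (1.28). TRIB3, a pseudokinase, fell in both lines (-1.60 and -2.88). ATF4 itself was not called (0.50, edgeR adjusted p = 0.268), nor was ASNS, the asparagine synthetase, which fell in both lines (-1.80 and -1.42). Without a filter on low counts 22 members were higher, and leaving out 1 library in turn gave 11 to 15. With DMSO day 3 as control in both lines 4 members were lower.

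The promoters below hold the amino acid response element TGATGNAA, through which ATF4 acts with a C/EBP partner; this motif was chosen after the values were seen. It was found in 4 of 23 promoters of the list (17.4%: ASNS, CHAC1, HERPUD1 and SLC3A2) and in 212 of 11666 of all genes tested (1.8%). The 250 bases before the start are given from RefSeq on GRCh38.p14, with the element in capitals as it reads on the printed strand (TTGCATCA is a match on the other strand). They lie at chr7:97872409-97872658 (minus strand, ASNS), chr15:40953221-40953470 (plus, CHAC1) and chr16:56931892-56932141 (plus, HERPUD1):

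ASNS: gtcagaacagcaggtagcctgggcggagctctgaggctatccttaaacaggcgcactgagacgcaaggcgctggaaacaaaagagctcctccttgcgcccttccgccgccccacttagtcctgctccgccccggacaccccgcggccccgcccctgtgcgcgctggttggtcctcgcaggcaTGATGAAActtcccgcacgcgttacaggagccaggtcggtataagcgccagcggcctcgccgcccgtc
CHAC1: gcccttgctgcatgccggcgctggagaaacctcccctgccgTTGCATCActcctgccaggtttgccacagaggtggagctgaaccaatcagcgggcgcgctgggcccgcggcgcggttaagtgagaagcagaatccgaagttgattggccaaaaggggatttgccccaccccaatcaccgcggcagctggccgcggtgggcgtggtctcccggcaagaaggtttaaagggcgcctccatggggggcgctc
HERPUD1: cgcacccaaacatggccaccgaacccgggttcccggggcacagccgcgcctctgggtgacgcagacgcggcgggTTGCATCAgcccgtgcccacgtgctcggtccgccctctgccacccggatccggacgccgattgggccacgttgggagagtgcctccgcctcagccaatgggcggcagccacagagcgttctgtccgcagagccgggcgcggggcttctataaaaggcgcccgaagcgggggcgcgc

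Of these, HERPUD1, which helps clear unfolded proteins, gave 0.40 in NOMO1 (not called) and fell by 1.10 in OCI-AML3. CHAC1, which degrades glutathione, gave -0.87 in NOMO1 (not called) and fell by 2.33 in OCI-AML3, and its line difference was not called (1.47 ± 0.58, edgeR adjusted p = 0.119).

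Genes of proliferation fell in both lines, and a part of the replication genes fell further in OCI-AML3. Of 35 DNA replication genes tested, 29 fell in NOMO1 and 34 in OCI-AML3. In the line difference 10 were higher and none lower (28.6% called, beside 9.61% of all genes), with a median of 0.35. CDC45, part of the replicative helicase complex, went from 33.4, 38 and 43.4 CPM to 22, 22.8 and 23.4 in NOMO1 and from 61.9, 56.9 and 70.6 to 23.5, 13 and 15.3 in OCI-AML3 (1.12 ± 0.20, edgeR adjusted p = 1.31e-04). MCM5, a subunit of that complex, went from 219.8, 206 and 234 to 170.2, 191 and 167 CPM and from 231, 219 and 258 to 132, 102 and 102 (0.76 ± 0.13, edgeR adjusted p = 8.46e-05). For both genes the groups did not overlap in either line, and OCI-AML3 replicate 1 was the least reduced of its group. MCM6, another helicase subunit, fell in both lines (0.56 ± 0.12, edgeR adjusted p = 1.17e-03), and TK1, thymidine kinase, fell in OCI-AML3 (0.59 ± 0.14, edgeR adjusted p = 2.86e-03). Without OCI-AML3 selumetinib replicate 1, 21 replication genes were higher, and 6 without replicate 2 or replicate 3. There were 19 with only the libraries titled day 3, and 25 (with 2 lower) with DMSO day 3 as control in both lines. E2F1, which drives these genes, fell in both lines (-0.80 and -1.59; line difference 0.79 ± 0.20, edgeR adjusted p = 4.86e-03). It lost its call with DMSO day 3 in both lines (0.34).

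Mitotic genes fell in both lines. Of 30 tested, 24 fell in NOMO1 and 22 in OCI-AML3, beside 14.1% and 13.1% of all genes. A line difference was called for 1 of them, UBE2C (3.3%, beside 9.61% of all genes). UBE2C was at under 2 CPM in NOMO1 and not called once replicate 2 of NOMO1 DMSO or selumetinib was left out (edgeR adjusted p up to 0.132). With DMSO day 3 in both lines 9 mitotic genes were higher and 4 lower. MYC went from 413, 410.2 and 429 CPM to 296, 289 and 321 in NOMO1 and from 556, 563 and 541 to 418, 334 and 342 in OCI-AML3, with no called difference (0.13 ± 0.12, edgeR adjusted p = 0.639). With DMSO day 3 as control in both lines the MYC difference was 0.57 and called. Of 32 MYC-related and nucleolar genes, 25 and 22 fell, and 2 were higher and 1 lower in the line difference, a share near the background. With DMSO day 3 in both lines 10 of them were higher and 8 lower. Of 22 nucleotide and polyamine synthesis genes, 18 fell in NOMO1 and 16 in OCI-AML3. In the line difference 2 were higher and 2 lower (18.2% called, beside 9.61% of all genes), with a median of -0.03. The lower ones were PRPS1 (-0.59) and CAD (-0.50), which lost their calls in 5 and 7 of 12 fits that left out 1 library. MTHFD2, a mitochondrial folate enzyme, fell in both, from 341, 402 and 327 CPM to 228, 220.5 and 258 and from 624, 615 and 619 to 288, 226 and 238 (0.71 ± 0.16, edgeR adjusted p = 1.73e-03), and so did ODC1, the first enzyme of polyamine synthesis (-0.33 and -0.86; 0.53 ± 0.14, edgeR adjusted p = 7.58e-03). CDKN1A, which encodes the cell cycle inhibitor p21, fell in NOMO1 from 61.7, 64.3 and 61.1 CPM to 33.3, 28.2 and 33.4 and lay at 42.6, 42.9 and 45 and 33.2, 39.4 and 40.4 in OCI-AML3 (-0.77 ± 0.21, edgeR adjusted p = 0.0169). That call was lost without NOMO1 selumetinib replicate 2 or OCI-AML3 selumetinib replicate 3 (edgeR adjusted p up to 0.0606) and with DMSO day 3 in both lines. CDKN1C, which encodes the inhibitor p57, lay at 13.9, 11.1 and 10.2 CPM and 12.9, 10.7 and 11.5 in NOMO1, and rose from 0.0512, 0.302 and 0.0953 to 1.06, 1.56 and 1.83 in OCI-AML3 (-3.27 ± 0.60, edgeR adjusted p = 1.26e-04). Of 21 G1 cyclins, CDKs and inhibitors 2 were higher and 3 lower (23.8% called, beside 9.61% of all genes). CDK6 and CDKN1B had no called difference (0.03 ± 0.16, edgeR adjusted p = 0.9959, and -0.17 ± 0.11, edgeR adjusted p = 0.417). With DMSO day 3 in both lines both were called, CDK6 at 0.61 and CDKN1B, which turned, at 0.28.

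More targets of p53 were called up in OCI-AML3 than in NOMO1. Of 26 tested, 13 rose and 4 fell in OCI-AML3, 3 rose and 6 fell in NOMO1, and 10 were lower and 2 higher in the line difference, a median of -0.52. The share called was 46.2%, beside 9.61% of all genes. MDM2, the ubiquitin ligase that degrades p53, lay at 62.5, 59.1 and 56.7 and 61.9, 63.5 and 64 CPM in NOMO1 and rose from 106, 103 and 98.7 to 147, 169.9 and 168 in OCI-AML3 (-0.57 ± 0.10, edgeR adjusted p = 7.64e-05). RRM2B, a ribonucleotide reductase subunit, fell in NOMO1 (-0.35) and rose in OCI-AML3 (0.40), a line difference of -0.75 ± 0.11, edgeR adjusted p = 4.17e-06. AEN, a nuclease, fell in NOMO1 from 23.2, 20.1 and 23.9 CPM to 11.8, 10.03 and 11 and gave 49.7, 50.9 and 50.1 and 54.5, 51.4 and 53.7 in OCI-AML3 (-1.11 ± 0.16, edgeR adjusted p = 4.46e-06). With DMSO day 3 in both lines, AEN was not called (-0.24) and RRM2B turned (0.10, not called). SESN2, which is also a target of ATF4, was higher (1.42 ± 0.30, edgeR adjusted p = 1.48e-03) and fell in OCI-AML3; it was not called with DMSO day 3 in both lines (0.40). SESN2 and GADD45A were the higher ones. The count of lower targets was 6 without NOMO1 selumetinib replicate 3 and 5 without OCI-AML3 selumetinib replicate 3.

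Among genes of cell death and growth factor withdrawal the called differences were few or mixed. Of 18 BCL2 family genes, BIK was lower and BCL2A1 higher, a share of 11.1%, near the 9.61% of all genes. BIK, a BH3-only promoter of cell death, lay at 14.8, 14.6 and 13.3 and 10.8, 8.97 and 10.2 CPM in NOMO1 and rose from 1.33, 1.66 and 1.38 to 5.01, 8.85 and 7.89 in OCI-AML3 (-2.82 ± 0.37, edgeR adjusted p = 5.15e-07). BCL2A1 fell in OCI-AML3 from 1.64, 1.46 and 1.57 CPM to 0.184, 0.0503 and 0.143 and gave 20.6, 29.4 and 19.1 and 12.7, 11.3 and 16.8 in NOMO1 (2.77 ± 0.83, edgeR adjusted p = 0.0285); it lost its call in 8 of 12 fits that left out 1 library (edgeR adjusted p up to 0.105). MCL1, which protects from cell death, fell in both lines (-0.45 and -0.36), with no called difference (-0.09 ± 0.09, edgeR adjusted p = 0.661), and neither had BCL2L11, which encodes the death promoter BIM (-0.17 ± 0.12, edgeR adjusted p = 0.496). With DMSO day 3 in both lines MCL1 turned to 0.45 and BCL2L11 to 0.50, both called. BCL2 gave -0.52 and -0.04, a difference of -0.48 ± 0.17, edgeR adjusted p = 0.0637 that was not called here and was called under 5 alternatives; with DMSO day 3 in both lines it turned to 0.52, called. Of 26 FOXO and growth factor withdrawal genes, 11 rose in NOMO1 and 15 in OCI-AML3, with 3 higher and 7 lower in the line difference (38.5% called). TXNIP, which restrains glucose uptake, rose in NOMO1 from 170.3, 154 and 168 CPM to 421, 369 and 268 and fell in OCI-AML3 from 818, 819 and 733 to 612, 597 and 635, with no overlap in either line (1.47 ± 0.13, edgeR adjusted p = 7.67e-11). KLF2, a zinc finger factor of quiescent leukocytes, had effects of 0.67 and -0.99 (1.67 ± 0.28, edgeR adjusted p = 6.99e-05), a call lost with DMSO day 3 in both lines. YPEL3 rose in both, further in OCI-AML3 (0.59 and 1.99, -1.40 ± 0.22, edgeR adjusted p = 2.20e-05).

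Monocyte and macrophage genes went both ways in each line. Of 30 tested, 10 rose and 8 fell in NOMO1, 14 rose and 5 fell in OCI-AML3, and 4 were higher and 6 lower in the line difference (33.3% called). LYZ, lysozyme, lay at 1690.2, 1729.8 and 1683 CPM and rose to 2486, 2491 and 2607 in NOMO1, and rose from 92.2, 102 and 90.2 to 254, 401 and 394 in OCI-AML3. It rose in each line without overlap, by 0.57 from a high level and by 1.88 from a low one, a line difference of -1.31 ± 0.15, edgeR adjusted p = 1.04e-07. TLR4, the endotoxin receptor, also rose in both, from 16.8, 20.6 and 17.3 CPM to 72.7, 70.04 and 74.6 and from 18.8, 19.2 and 17.1 to 30.3, 40.9 and 42.3, and further in NOMO1 (0.94 ± 0.15, edgeR adjusted p = 1.03e-05). ITGAM, which encodes CD11b, lay at 701, 776 and 706 and 454, 489.98 and 537 CPM in NOMO1 and rose from 1.74, 1.16 and 1.57 to 3.26, 4.48 and 4.27 in OCI-AML3 (-1.98 ± 0.48, edgeR adjusted p = 5.72e-03); the treated NOMO1 libraries were below their controls, an effect of -0.56 that was not called. Every NOMO1 library had more ITGAM than any OCI-AML3 library. CD14 fell in both lines (-2.50 and -2.93) with no called difference (0.43 ± 0.67, edgeR adjusted p = 0.831). GATA2, a stem and progenitor factor, fell in NOMO1 from 97.9, 112 and 102 CPM to 12.8, 12.4 and 11.9 and lay at 3.07, 2.82 and 2.05 and 3.45, 1.86 and 2.01 in OCI-AML3 (-2.95 ± 0.43, edgeR adjusted p = 1.58e-05). Of 31 myeloid transcription factors, GATA2 among them, 1 was higher and 3 lower, a share of 12.9%, near the 9.61% of all genes. RUNX2, a RUNT-family factor, fell in NOMO1 and rose in OCI-AML3 (-1.15 and 0.65; -1.80 ± 0.20, edgeR adjusted p = 1.67e-08). In bulk libraries fewer cells of a type and less RNA per cell cannot be told apart.

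Among called adhesion and matrix genes, more were lower than higher in the line difference. Of 30 integrin and adhesion genes, 11 were lower and 2 higher, beside 4.96% and 4.65% of all genes, with 9 falling in NOMO1 and 11 rising in OCI-AML3. With DMSO day 3 as control in both lines 7 were lower and 7 higher. CD82, a tetraspanin, fell from 69.6, 63.4 and 77.4 CPM to 30.3, 28.4 and 21.7 in NOMO1 and rose from 4.15, 4.73 and 4.76 to 8.78, 9.86 and 10.8 in OCI-AML3 (-2.50 ± 0.27, edgeR adjusted p = 5.11e-08). ITGB7 rose in both lines, from 30.8, 29.4 and 33.1 to 57.5, 51.2 and 48.7 CPM and from 3.02, 2.62 and 2.48 to 16.3, 25 and 23.9, further in OCI-AML3 (-2.25 ± 0.27, edgeR adjusted p = 1.42e-07); the call was lost with DMSO day 3 in both lines (-0.18). Treated and control libraries of CD82 and of ITGB7 did not overlap in either line. ITGAL, the alpha chain of LFA-1, rose in NOMO1 and fell in OCI-AML3 (0.31 and -0.62, 0.93 ± 0.12, edgeR adjusted p = 4.73e-07). Of 28 protease and matrix genes 11 were lower and 1 higher (42.9% called, beside 9.61% of all genes). FN1, fibronectin, fell from 14.9, 15.4 and 12.6 CPM to 1.58, 0.565 and 1.89 in NOMO1 and lay at 11.1, 8.91 and 10.6 and 17.2, 6.84 and 18.8 in OCI-AML3, where treated libraries lay on both sides of the controls (-3.85 ± 0.70, edgeR adjusted p = 3.04e-04). TIMP3, an inhibitor of metalloproteinases, was the higher one: it lay at 95.3, 89.98 and 83.7 and 102, 97.6 and 106 CPM in NOMO1 and fell from 642, 603 and 662 to 252, 209 and 221 in OCI-AML3 (1.67 ± 0.17, edgeR adjusted p = 1.81e-08). Fibroblast genes had counts in all 3 treated OCI-AML3 libraries, as given above, and their part in these results was not tested. SERPINA1 fell in NOMO1 alone by the test (-1.67 ± 0.24, edgeR adjusted p = 4.08e-06).

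Among 25 chemokine and chemoattractant receptors 1 was higher in the line difference and 3 were lower, beside 9.61% of all genes called; 1 was lower without OCI-AML3 DMSO replicate 2 or 3 or OCI-AML3 selumetinib replicate 2. C5AR1, the receptor of complement fragment C5a (chromosome 19, 47290023 to 47322066), lay at 7.34, 6.25 and 8.89 CPM and 8.06, 6.64 and 11.1 in NOMO1, and in OCI-AML3 at 7.78, 9.31 and 9 and 0.368, 0.302 and 0.0717. Untreated lines overlapped, and the treated OCI-AML3 libraries were at under 0.4 CPM, 16 counts in all, for a line difference of 5.41 ± 1.01, edgeR adjusted p = 4.45e-04. VEGFA, a vascular growth factor, gave -0.25 in NOMO1 and fell from 151, 139 and 146 CPM to 60.4, 37.9 and 37.9 in OCI-AML3 (1.43 ± 0.26, edgeR adjusted p = 3.27e-04). TNFSF13B, which encodes the B cell factor BAFF, rose in OCI-AML3 from 6.25, 5.69 and 5.29 CPM to 15.4, 19.4 and 17.5 and lay at 69.4, 80.4 and 64.8 and 74.8, 78.7 and 84.1 in NOMO1 (-1.45 ± 0.19, edgeR adjusted p = 2.34e-07). Every NOMO1 library had more TNFSF13B than any OCI-AML3 library. CSF1, the ligand of CSF1R, gave 0.77 in NOMO1 and fell by 1.36 in OCI-AML3, at under 5 CPM in both (2.14 ± 0.49, edgeR adjusted p = 2.10e-03). JAK2, the kinase of cytokine receptors, lay at 14.7, 14.7 and 13.1 and 14.1, 14.8 and 13.3 CPM in NOMO1 and rose from 11.4, 11.8 and 10.2 to 18.5, 26.3 and 26.3 in OCI-AML3 (-1.10 ± 0.19, edgeR adjusted p = 4.10e-05), but with DMSO day 3 in both lines the difference was 0.02 and not called.

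Among genes of STAT signalling and of the interferon response, 3 members of each list were called. Of 20 SOCS and PIM feedback genes 3 were lower and none higher. STAT5A, which carries cytokine signals to the nucleus, lay at 62.6, 71.3 and 62 and 49.9, 55.7 and 47.4 CPM in NOMO1 and rose from 1.02, 1.81 and 1.81 to 2.85, 4.02 and 2.83 in OCI-AML3 (-1.40 ± 0.29, edgeR adjusted p = 5.96e-04). PIM1, a survival kinase induced by STAT5, fell in NOMO1 from 56.4, 56.2 and 61.4 CPM to 37.1, 32.8 and 33 and lay at 11.6, 12.4 and 14.4 and 9.01, 12 and 13.8 in OCI-AML3 (-0.62 ± 0.16, edgeR adjusted p = 9.81e-03), and was not called without OCI-AML3 selumetinib replicate 3 (edgeR adjusted p = 0.0975). Of 34 interferon-stimulated genes 1 was higher and 2 lower, a share near the background of 9.61%. XAF1, a promoter of cell death, rose in NOMO1 from 2.45, 3.58 and 4.53 CPM to 7.12, 8.26 and 6.01 and fell in OCI-AML3 from 16.2, 16.7 and 17.7 to 11, 8.15 and 8.90 (1.86 ± 0.28, edgeR adjusted p = 5.43e-06). GBP2, a guanylate-binding protein, did the reverse, from 201, 206 and 206 CPM to 133, 133 and 130.3 in NOMO1 and from 0.358, 0.201 and 0.238 to 0.735, 1.31 and 0.861 in OCI-AML3, where it stayed low (-2.45 ± 0.48, edgeR adjusted p = 5.06e-04). Treated and control libraries of XAF1 and of GBP2 did not overlap in either line. The third, IFIH1, a sensor of viral RNA, rose in OCI-AML3 (-1.28 ± 0.35, edgeR adjusted p = 0.0140); it lost its call in 2 of 12 fits that left out 1 library and with DMSO day 3 as control.

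Granule, chemokine and menin lists held 3, 8 and 3 called members of 27, 30 and 25 tested, and for the granule and menin lists that is near the 9.61% of all genes. Leaving out 1 library in turn gave 1 or 2 higher and 0 to 4 lower granule genes (0 without replicate 3 of selumetinib in either line, 4 without OCI-AML3 selumetinib replicate 1), and 1 higher menin gene without NOMO1 DMSO replicate 3. ELANE, neutrophil elastase, lay at 631, 636 and 621 and 652, 574 and 501 CPM in NOMO1 and rose from 497, 533 and 525 to 779, 879 and 949 in OCI-AML3 (-0.87 ± 0.24, edgeR adjusted p = 0.0154); the call was lost without replicate 3 of selumetinib in either line. CTSG, cathepsin G, rose in OCI-AML3 (1.13) and had a line difference of -0.87 ± 0.26, edgeR adjusted p = 0.0309, which lost its call in 10 of 12 fits that left out 1 library. Of the chemokines and cytokines, 3 were higher and 5 lower. CCL23, a chemokine of myeloid cells, fell in NOMO1 from 2.106, 3.43 and 3.14 CPM to 0.692, 0.847 and 1.73 and lay at 0.665, 0.604 and 0.857 and 1.10, 1.91 and 0.897 in OCI-AML3 (-2.26 ± 0.53, edgeR adjusted p = 3.03e-03). Among menin and KMT2A partners and targets, 2 were higher and 1 lower. SENP6, a SUMO protease, rose in NOMO1 from 56.5, 66 and 60.3 CPM to 128, 134 and 133 and lay at 102, 105 and 92.9 and 101, 98.9 and 94.5 in OCI-AML3 (1.137 ± 0.11, edgeR adjusted p = 4.29e-10). Of 13 MHC class II genes 1 was called (7.7%, near the 9.61% of all genes). It was CD74, the invariant chain, which rose in NOMO1 (0.27) and gave -0.15 in OCI-AML3 (0.42 ± 0.11, edgeR adjusted p = 6.51e-03). It was not called with the selumetinib libraries titled day 3 alone or with DMSO day 3 as control.

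The 10 genes with the strongest opposite effects, ranked by the smaller of the absolute effects in each line among the 163 such genes with at least 5 CPM in every group, fell into 5 of each kind. Down in NOMO1 and up in OCI-AML3 were ITGA7, an integrin alpha chain, PTGER4, a prostaglandin E2 receptor, AHNAK, a giant scaffold protein, RAB7B, a lysosomal GTPase, and PRKAR2B, a regulatory subunit of protein kinase A. ITGA7 went from 56.9, 59.9 and 60.1 CPM to 28.9, 25.9 and 34.6 in NOMO1 and from 7.12, 7.10 and 8.62 to 17.1, 19.9 and 21.5 in OCI-AML3 (-2.34 ± 0.30, edgeR adjusted p = 5.16e-07). PTGER4 went from 55.5, 73.8 and 49.5 CPM to 30.7, 35.3 and 42.2 and from 16.8, 18.4 and 15.5 to 39.5, 49.9 and 51.6 (-2.20 ± 0.25, edgeR adjusted p = 1.68e-07). For both genes treated and control libraries of a line did not overlap. AHNAK had effects of -0.73 and 1.56, RAB7B of -1.02 and 0.72, and PRKAR2B of -0.83 and 0.71. Up in NOMO1 and down in OCI-AML3 were ASGR2, a lectin receptor, SPNS3, a transporter, GPR35, a G protein-coupled receptor of leukocytes, CYBB, the catalytic subunit of the phagocyte NADPH oxidase, and TATDN3, a predicted nuclease. ASGR2 went from 15, 16.3 and 14.2 CPM to 35.6, 34.2 and 33.1 and from 56.3, 51.3 and 56.9 to 27.3, 23.2 and 23 (2.34 ± 0.18, edgeR adjusted p = 1.63e-12). SPNS3 went from 74.3, 80.8 and 77.4 CPM to 146, 147 and 153 and from 51.3, 51.9 and 51.6 to 28.3, 21.5 and 25.3 (1.99 ± 0.28, edgeR adjusted p = 1.06e-05), GPR35 had effects of 0.76 and -1.02, and TATDN3 of 0.71 and -0.71. CYBB went from 269.7, 319 and 277 CPM to 445, 458 and 548 and from 473, 470.3 and 445 to 290.4, 249.1 and 247 (1.57 ± 0.22, edgeR adjusted p = 6.12e-06), so that OCI-AML3 was higher in DMSO and NOMO1 was higher with selumetinib. All 10 kept their sign and call in every fit that left out 1 library, and with DMSO day 3 as control in both lines they kept both, at sizes as low as -0.64 for PRKAR2B and 0.87 for TATDN3. They were chosen by their calls in these same libraries, so these fits are not independent support.

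**Figure D4:**
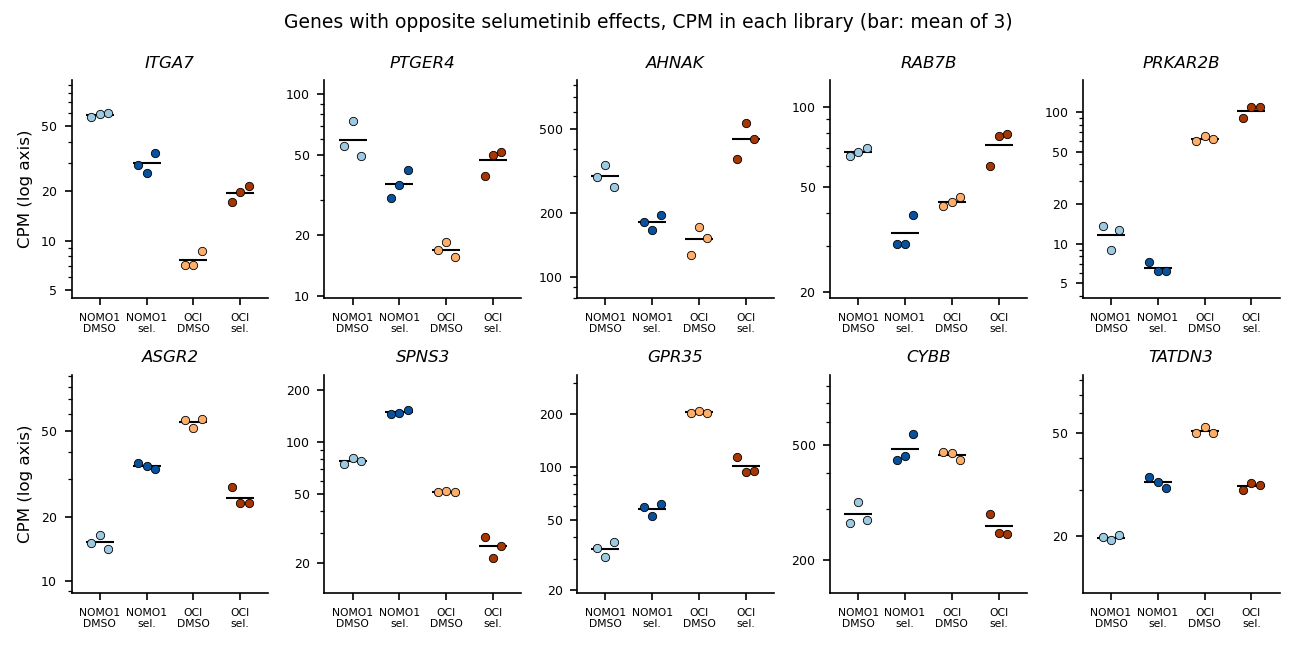
CPM (log axis) in each of the 12 libraries of the 10 genes with the strongest opposite effects, with points for libraries, bars for the mean of 3 and OCI for OCI-AML3. The upper 5 genes fall in NOMO1 and rise in OCI-AML3, as ITGA7 does, and the lower 5 do the reverse, as ASGR2 does.

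By size, most of the widest line differences beside those already given came from genes low in at least 1 group; those named here had over 3 counts in each group. Among lower ones, OLFML3, a secreted protein, rose in OCI-AML3 from 0.358, 0.302 and 0.191 CPM to 3.26, 8.45 and 8.72, with 2.89, 2.109 and 1.52 and 0.494, 0.988 and 1.61 in NOMO1 (-5.64 ± 0.63, edgeR adjusted p = 1.81e-08). CHST2, a sulfotransferase, fell in NOMO1 from 7.05, 3.20 and 5.36 CPM to 0.346, 0.424 and 0 and lay at 19.4, 22.6 and 24.5 and 25.5, 32.2 and 35.7 in OCI-AML3 (-4.83 ± 0.52, edgeR adjusted p = 3.20e-08). CHST2 was low in treated NOMO1, and OLFML3 was low in untreated OCI-AML3. ANTXR1 fell in NOMO1 (-3.80 ± 0.68, edgeR adjusted p = 1.42e-04; -6.14 without NOMO1 selumetinib replicate 3), FAT1 fell in NOMO1 and rose in OCI-AML3 (-4.23 ± 0.82, edgeR adjusted p = 3.55e-04), GASK1B rose in OCI-AML3 (-4.77 ± 1.04, edgeR adjusted p = 1.42e-03; not called without NOMO1 DMSO replicate 3, edgeR adjusted p = 0.104), and FCGR2B rose there too (-4.14 ± 1.19, edgeR adjusted p = 0.0228; call lost in 4 of 12 fits that left out 1 library).

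Among higher ones, S100P, a calcium-binding protein, lay at 88.4, 86.4 and 87.2 CPM and 63.7, 73.6 and 80.03 in NOMO1 and fell from 13.5, 18.4 and 22.1 to 2.30, 0.352 and 0.323 in OCI-AML3 (3.96 ± 0.68, edgeR adjusted p = 1.71e-04). AKR1C2, an aldo-keto reductase with near-identical family copies to which reads could also be assigned, gave 0.46 and -3.20 (3.66 ± 0.52, edgeR adjusted p = 5.71e-06). ESRP1, a splicing regulator of epithelia, fell in OCI-AML3 from 3.58, 4.18 and 4.05 CPM to 0.690, 0.906 and 0.287 and lay at 5.48, 6.67 and 5.14 and 13.1, 9.88 and 10.4 in NOMO1 (3.64 ± 0.60, edgeR adjusted p = 3.96e-05). SCN4A, a sodium channel, fell in OCI-AML3 by 3.22 (4.54 ± 0.75, edgeR adjusted p = 3.07e-05), as did DAPK2, a death-associated kinase (3.41 ± 0.78, edgeR adjusted p = 2.86e-03), and SPTB, a spectrin (3.56 ± 0.88, edgeR adjusted p = 8.01e-03). SPTB reached 7.23 without OCI-AML3 selumetinib replicate 1, the treated library with most of its counts. WWC1 rose in NOMO1 from under 0.2 CPM (3.32 ± 1.01, edgeR adjusted p = 0.0285) and lost its call in 6 of 12 fits that left out 1 library.

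Of 13 mitochondrially encoded genes 6 were called higher in the line difference, and of 24 glycolysis genes 5 were called lower, beside 4.65% and 4.96% of all genes. All 13 mitochondrially encoded protein genes rose in NOMO1 and 0 were called in OCI-AML3, with a median line difference of 0.83. The count of higher ones was 3 to 8 when 1 library was left out and 1 with only the 12 compared libraries. MT-CO3, a subunit of cytochrome c oxidase, lay at 2487, 1887 and 2145 CPM and rose to 4349, 5532 and 4333 in NOMO1, beside 3794, 2938 and 4073 and 3830.2, 4625 and 4317 in OCI-AML3 (0.88 ± 0.19, edgeR adjusted p = 2.10e-03). The NOMO1 groups did not overlap and the OCI-AML3 groups did. These genes turned with DMSO day 3 as the control in both lines (MT-CO3 at -2.28, called, and 13 members lower), the group in which mitochondrial transcripts were high, and MT-CO3 lost its call with DMSO day 3 in OCI-AML3 alone (0.52). Of the glycolysis genes 16 fell in NOMO1 and 11 in OCI-AML3, and 1 was higher in the line difference. The 5 lower ones became 2 without NOMO1 DMSO replicate 2 or NOMO1 selumetinib replicate 1 or 2, and 3 without OCI-AML3 DMSO replicate 1 or 2 or OCI-AML3 selumetinib replicate 1. With DMSO day 3 in both lines the balance turned to 1 lower and 11 higher. SLC2A1, the glucose transporter GLUT1, went from 47.2, 78.1 and 44.6 CPM to 13.5, 15.2 and 22.1 in NOMO1 and lay at 50.7, 47.5 and 51.4 and 42.7, 38.3 and 40.9 in OCI-AML3 (-1.45 ± 0.30, edgeR adjusted p = 1.40e-03). PGAM1, phosphoglycerate mutase, fell in NOMO1 (-0.78, -0.63 ± 0.12, edgeR adjusted p = 2.65e-04), and SLC2A5, a fructose transporter, rose there (0.79, 0.83 ± 0.12, edgeR adjusted p = 3.63e-06). Neither SLC2A1 nor PGAM1 was called with DMSO day 3 in both lines.

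Some programs showed no called line difference. The HOXA, HOXB, MEIS and PBX genes, the stem cell program that menin and KMT2A sustain, had 0 of 24 called, and MHC class I genes 0 of 16 (edgeR, and 2 and 1 at an unadjusted p under 0.05). With DMSO day 3 as control in both lines 2 of the former were higher and 1 lower, and 4 MHC class I genes were higher and 6 lower. HOXA9 lay at 60.4, 59.9 and 61.7 CPM and 44.2, 40.5 and 40.2 in NOMO1 and at 86.9, 77 and 75.6 and 61, 59.7 and 54.5 in OCI-AML3; it fell in both lines (-0.09 ± 0.16, edgeR adjusted p = 0.864). MEIS1 rose by 0.69 in NOMO1 and gave 0.32 in OCI-AML3 (0.37 ± 0.18, edgeR adjusted p = 0.218), and MEN1 and KMT2A were not called (0.23 ± 0.12, edgeR adjusted p = 0.278, and -0.49 ± 0.25, edgeR adjusted p = 0.255). KMT2A was called without a filter on low counts and in a fit of only the 12 compared libraries (-0.53 in each). A p that misses the threshold does not show equal effects. In simulated counts of this design 34.3% of 1.5-fold differences were found, 68.7% of 2-fold and 87.9% of 4-fold. That holds for genes over 1 CPM in NOMO1 DMSO day 6 and does not cover genes of lower counts. Across lists, the share called ranged from none to 78.3%, beside 9.61% of all genes tested.

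**Figure D5:**
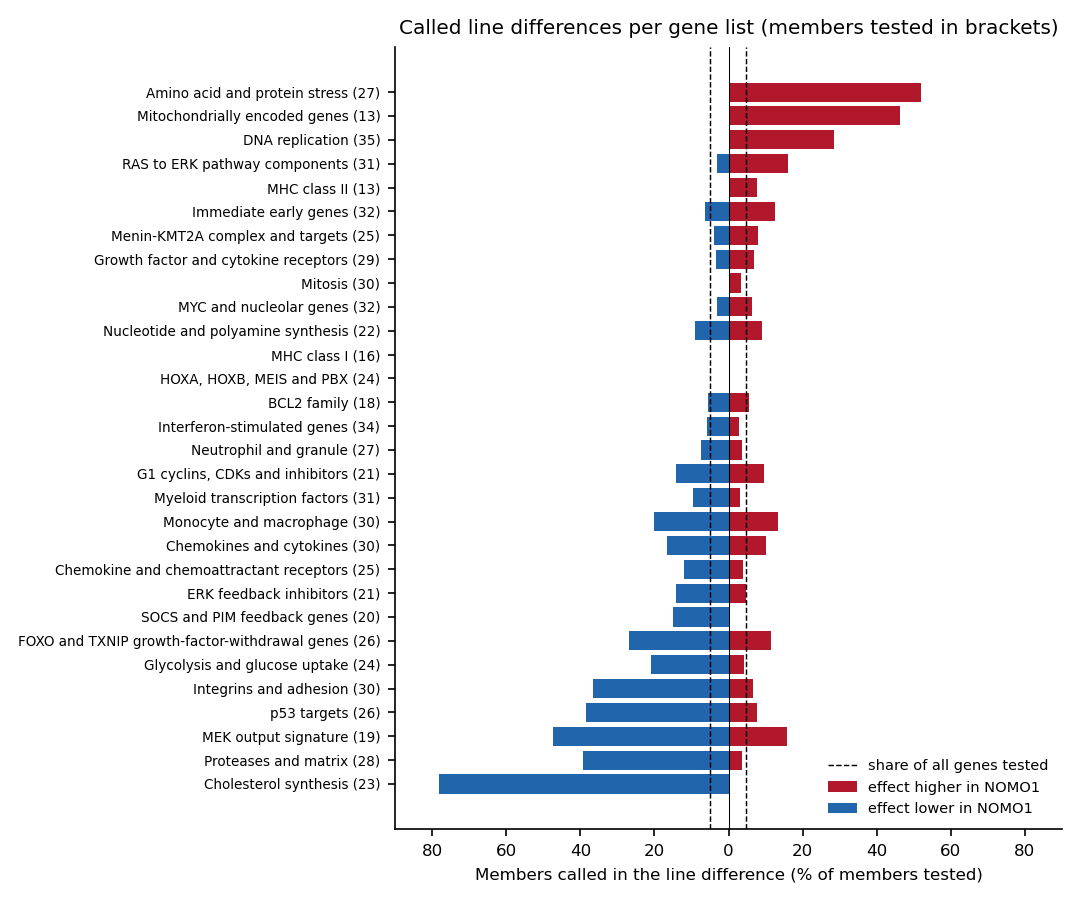
Share of tested members called in the line difference for each of 30 gene lists (x axis, %; members tested in brackets), higher in NOMO1 to the right and lower to the left, with dashed lines at the shares over all genes (4.65% and 4.96%). Cholesterol synthesis (18 of 23) extends furthest to the left, and amino acid and protein stress (14 of 27) furthest to the right.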

How the data were processed

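Polyadenylated RNA of 42 libraries was sequenced as unstranded paired-end reads, per the labels' protocols. The authors deposited raw counts per gene in 1 table; the submitters' processing notes name FastQC 0.11.9, MultiQC 1.14, STAR 2.11a, featureCounts, Subread 2.0.6, DESeq2 1.44.0 and the build hg38, with no role or order. The table also has 3 columns that match no library, which were not used; a row naming no gene held 0 counts, and 1 gene had an empty cell.

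Genes passing edgeR's filterByExpr (18707 of 58868) were fitted in edgeR 4.0.16 (R 4.3.3) with TMM factors, robust quasi-likelihood and 14 group means over all 42 libraries (28 residual degrees of freedom), and the line difference is the contrast of selumetinib minus DMSO day 6 in NOMO1 and in OCI-AML3. P-values were Benjamini-Hochberg adjusted over all genes tested, and a call is an adjusted p under 0.05. The SE is the absolute log2 effect over the square root of F. The fit was tested on simulated counts of 18707 genes, with 67, 67 and 66 of them changed by 1.5-, 2- and 4-fold. These were drawn from genes over 1 CPM in NOMO1 DMSO day 6, and all other genes had no drug effect. The fit found 34.3%, 68.7% and 87.9% of them. The simulation gave 132 calls, fewer than the data, and its rates do not cover genes of lower counts. The totals per library set the precision of low counts, and reads are not unique molecules.

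Named genes were the 10 largest rises and falls (at least 5 CPM in 1 group, over 3 counts in each, no overlap in at least 1 line), the 10 strongest opposite genes with at least 5 CPM in each group, up to 4 called members per list by adjusted p, and a set of followed genes. Members and lists were chosen with earlier results of these data known, and which of the 135 named genes to print, as well as ASNS, ATF4, CHAC1, CTH, DDIT3, HERPUD1, HMGCS1, PCK2, S100A6, SREBF2 and TRIB3, was chosen after their values were seen; some named genes are not reported here. Replicate numbers did not pair libraries across groups, so the fit has no block. Gene positions come from GENCODE and promoters from RefSeq. Counting did not use strand, so reads of ETV4 and DHX8, CCND1 and LTO1, MDM2 and CPM, ITGB7 and ZNF740, SPTB and PLEKHG3, and ITGA7 and METTL7B, which overlap on opposite strands, cannot be told apart there. Alternatives were DESeq2 1.42.0, other scaling factors, filters, controls and library sets.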

Additional observations from a re-analysis of the deposited data

Results flagged for a closer look

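In 10 genes named for the strongest opposite effects, selumetinib moved expression in opposite directions in the lines, and the difference itself was tested as the interaction contrast of the edgeR fit. The line difference was -2.34 for ITGA7, -2.29 for AHNAK, -2.20 for PTGER4, -1.74 for RAB7B and -1.54 for PRKAR2B, which fell in NOMO1 and rose in OCI-AML3. It was 2.34 for ASGR2, 1.99 for SPNS3, 1.79 for GPR35, 1.57 for CYBB and 1.42 for TATDN3, which rose in NOMO1 and fell in OCI-AML3. In all, 205 of the 1797 called line differences had effects called in both lines and in opposite directions, and these 10 are those that the naming rule chose. A called line difference was itself a condition of that rule, so the test gives no separate support. The test used for a single library far from the rest of its group needs 4 or more libraries and was not run on groups of 3.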

How the results depend on the processing

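Of 870 higher and 927 lower line differences, library totals without factors gave 694 and 1157 (37.5% higher against 48.4%), no filter on low counts 766 and 1149 (40%), and removal of mitochondrial genes 722 and 1106 (39.5%). A fit of only the 12 compared libraries gave 1368 and 1956 (41.2% higher), with 3243 genes up in OCI-AML3. DMSO day 3 as control in both lines gave 3755 and 2546, with 4995 genes up in NOMO1, and 1076 of its 6301 calls were shared with the same sign (59.6% higher). DESeq2 gave 1133 and 1204. Leaving out 1 library in turn gave 665 to 855 higher and 687 to 879 lower line differences, 1623 to 2087 up and 2157 to 2614 down in NOMO1, and 1439 to 1924 up and 1887 to 2433 down in OCI-AML3. Replicate numbers did not pair libraries (correlations of deviations between -0.027 and 0.0393), and the fit with the replicate block gave 857 and 903, sharing 1712 of the 1797 calls.

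With DMSO day 3 in both lines, the line difference turned for BCL2 (0.52), BCL2L11 (0.50), CAD (0.034), CDKN1B (0.28), CSF1R (0.32), ENO1 (0.047), FLT3 (0.74), IER2 (-0.20), JAK2 (0.015), MAP2K1 (0.46), MCL1 (0.45), MMP2 (3.74), MT-ATP6 (-2.11), MT-ATP8 (-2.20), MT-CO3 (-2.28), MT-CYB (-1.83), POLR1B (0.076), RRM2B (0.10) and UBE2C (-0.90); the cause was not tested. It moved by over 1.5 times with its call kept for ANTXR1 (-2.20), ASGR2 (1.01), ATF5 (2.40), CSF2RB (1.505), DHCR7 (-0.66), FAT1 (-7.06, and -8.37 with DMSO day 3 in OCI-AML3 alone), HEATR1 (2.02), ITGA7 (-1.28), MCM5 (1.39), MCM6 (1.39), MRAS (0.87), ODC1 (0.89), PRKAR2B (-0.64), RAB7B (-0.78), SPNS3 (0.97), SPRY2 (0.86), SPRY4 (-1.26), TATDN3 (0.87), TNFSF13B (-0.85) and YPEL3 (-2.73). Leaving out 1 library in turn also moved small list counts: 0 to 2 higher and 1 to 3 lower BCL2 family genes, 0 to 2 each for MYC and nucleolar genes, 1 or 2 higher and 1 to 3 lower interferon-stimulated genes, 1 to 3 lower immediate early genes, 0 to 3 lower nucleotide and polyamine genes, 0 to 2 higher feedback inhibitors, 1 or 2 higher G1 genes and p53 targets, 1 to 3 higher myeloid transcription factors, 1 or 2 higher protease and matrix genes, and 2 to 5 lower SOCS and PIM genes. A call was gained without turning by CDK6 (0.61), FOS (-1.79), MYC (0.57) and NRAS (0.28) with DMSO day 3 in both lines. Of 116 named genes with a called line difference, 89 kept sign and call in every fit that left out 1 library. Low counts limit the genes near 0 in 1 group, and 3 libraries a group limit small differences.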
